A study of Homo sapiens with 11 samples.

Results

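Translation initiation and elongation factors were followed in Reh, a human leukaemia cell line of B-precursor origin that carries the ETV6-RUNX1 fusion. Members were the genes whose symbol starts with EIF followed by 1 to 6, or with EEF followed by 1 or 2, without the eIF2 kinase loci and without pseudogenes, and each gene was read from its brightest single-symbol probe set. The rule took 56 of the 19775 genes on the array, of which 54 code for protein and 2 are noncoding neighbours, EIF1B-AS1 and EIF3J-DT. They divide into 10 genes of eIF1, eIF5 and eIF6, 10 of eIF2 and its exchange factor eIF2B, 13 of eIF3, 12 of eIF4 and its binding proteins, and 9 elongation factors with their modifying enzymes. A further 12 coding genes of the rule had no single-symbol probe set and were not analysed here. They include EIF4A1, EEF1B2 and EEF1G, which lie on probe sets shared with other genes, and EIF4G3 and EEF1E1.

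All groups stably expressed miR-125b after viral infection and received precursor oligonucleotides in 2 transfections 72 h apart, with harvest 48 h after the last. The miR-99a group (3 arrays) and the miR-100 group (3 arrays) received 66 µM of their oligo, the combined group (3 arrays) received 33 µM of each, and the control group (2 arrays) received 66 µM of a scrambled oligo. Since all groups carry miR-125b, no comparison here concerns it. The labels number the replicates 1 to 3 in the treated groups and 1 and 2 in the control, and say that cells were incubated in triplicate. They do not say whether a number marks a culture, a day or a hybridization, so p-values measure the spread between these arrays, which may be technical.

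Translation of a cytoplasmic messenger starts when the eIF4 proteins bind its cap and unwind its leader, eIF3 joins the messenger to the small ribosomal subunit, and eIF2 with GTP brings the initiator tRNA. The factors eIF1, eIF1A, eIF5 and eIF5B then set the start codon and join the large subunit. The elongation factors eEF1 and eEF2 deliver aminoacyl-tRNAs and move the ribosome, and the cell adjusts the whole process through mTOR, which releases eIF4E from its 4E-BP inhibitors, and through kinases that phosphorylate eIF2.

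The oligos supplied a pair of closely related microRNAs, shown here with the microRNA that all groups carried, because they define the treatments. Bases 2 to 8 of each mature strand, the seed, are in capitals (RefSeq, GRCh38.p14).
miR-99a-5p: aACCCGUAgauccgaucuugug
miR-100-5p: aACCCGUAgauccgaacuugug
miR-125b-5p: uCCCUGAGacccuaacuuguga
The first lies at chr21:16539101-16539122 on the plus strand and the second at chr11:122152275-122152296 on the minus strand. They share the seed ACCCGUA and differ by U16A, counted from 1 at the 5′ end of miR-99a-5p. The miR-125b strand has another seed, CCCUGAG.

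A second set of sequences shows the start of transcription of 6 members, because messengers that begin with a C and a run of pyrimidines form a class (terminal oligopyrimidine messengers) whose translation depends on mTOR. Each line gives 10 bases before and 20 bases from the annotated start, with the pyrimidine run in capitals (RefSeq, GRCh38.p14).
EEF1A1: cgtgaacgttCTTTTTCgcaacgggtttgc
EEF2: cgtcagcgttCTCTTCCgccgtcgtcgccg
EIF3F: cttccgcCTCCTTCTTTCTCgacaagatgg
EIF4B: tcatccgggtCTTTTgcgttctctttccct
EIF3D: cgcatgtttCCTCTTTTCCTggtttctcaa
EIF3M: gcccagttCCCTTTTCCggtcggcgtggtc
These windows lie at chr6:73521013-73521042 (minus strand), chr19:3985444-3985473 (minus), chr11:7987327-7987356 (plus), chr12:53006446-53006475 (plus), chr22:36529147-36529176 (minus) and chr11:32583821-32583850 (plus). A C followed by 4 bases that are each C or T, read on the gene's own strand from 3 bases before to 6 bases from the start, was found in 15 of the 42 members with a promoter entry (35.7%). The share was 13.7% of the 13455 protein-coding genes with an entry and 76.5% of 51 cytoplasmic ribosomal protein genes.

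The arrays matched the labelled cell type. In each group 10 of 11 measured B-precursor markers had a mean log2 value of at least 8, with DNTT highest at 13.06, 13.05 and 13.18 in the miR-99a, miR-100 and combined arrays and 13.09 in the control. VPREB1 was at 5.46 to 5.5. None of the 8 T and NK, 8 myeloid, 5 erythroid and platelet or 8 fibroblast and epithelial markers reached 8 in any group. Correlations between arrays over all genes were 0.989 to 0.998. The 3 treated arrays numbered 3 stood apart from the other arrays, in the members and in the genes at large, so each oligo comparison is given with them and without them.

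With group means over all 11 arrays, no translation factor passed the threshold under any of the 3 oligo treatments. The call depended on how the arrays numbered 3 were handled, since fits that set them apart called some members. In the fit of group means, limma called 0 of 56 members against control at a Benjamini-Hochberg adjusted p under 0.05 under miR-99a, miR-100 or the combination, or over all treatments together, where it called 0.0% of all genes in each comparison. At an unadjusted p under 0.05 the members numbered 0 under miR-99a, 0 under miR-100, 4 under the combination and 2 over all treatments, while 1.0%, 1.54%, 3.66% and 2.47% of all genes passed that mark. With replicate 3 as a term on the same 11 arrays, limma called 3 members with the combination, EIF1 at 0.33 (adjusted p = 0.0372), EIF3K at -0.33 (adjusted p = 0.0494) and EIF4E2 at -0.32 (adjusted p = 0.0485), where 2.24% of all genes were called. The same fit called 0 members with miR-99a or miR-100 (0.0% of all genes in each) and 0 over all treatments (0.121%).

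The median member differed from control by -0.05 under miR-99a, by -0.05 under miR-100 and by -0.04 under the combination on the log2 scale, beside -0.01, -0.01 and 0.00 over all genes. In bulk RNA, fewer cells that express a gene and less RNA per cell cannot be told apart. Genes of the same level had like medians. Between log2 values of 10 and 12, the 17 members had a median of -0.08 with miR-99a and 1271 other genes had -0.07. Quantile normalization brought the members' medians to -0.01, 0.01 and -0.02. Arrays of treated and control groups did not overlap for 5 members with miR-99a (15.4% of all genes), 2 with miR-100 (13.4%) and 9 with the combination (20.5%).

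**Figure D1:**
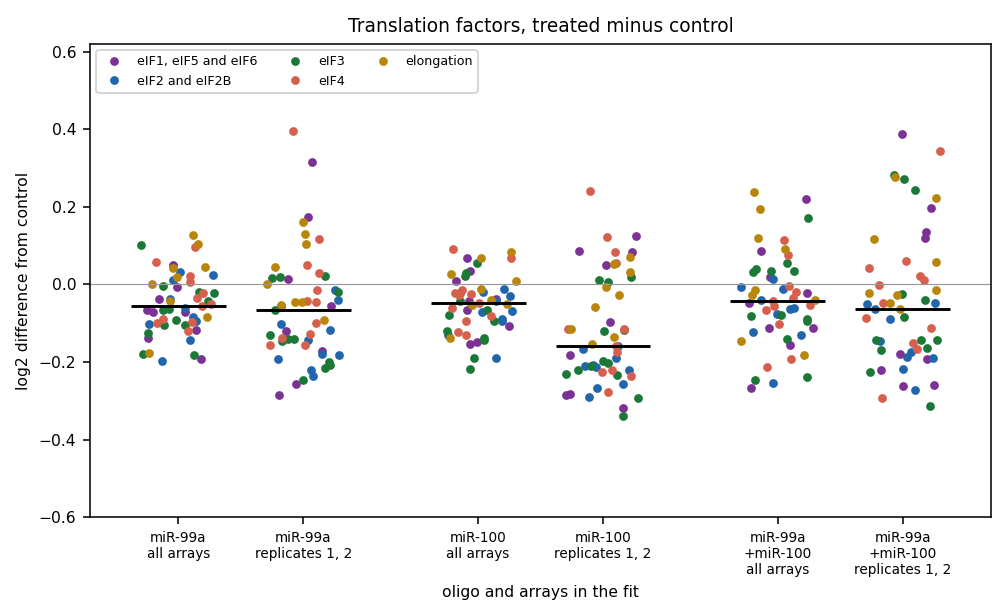
Log2 difference from control (vertical axis) of 53 translation factor genes for each oligo, from all arrays and from replicates 1 and 2 of every group. Points are genes coloured by family and black lines are the medians of the points, which lie below 0 in all 6 columns.

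EIF2S1 encodes the alpha subunit of eIF2 that the stress kinases phosphorylate. Its log2 values were 9.78, 9.62 and 9.81 with miR-99a, 9.78, 9.51 and 9.95 with miR-100 and 9.67, 9.65 and 9.72 with the combination, against 9.96 and 9.91 in control. All treated arrays but 1 lay below both control arrays, and the exception was miR-100 replicate 3. The log2 difference over all treatments was -0.21 ± 0.10 (SE) with an unadjusted limma p of 0.0472 and an adjusted p of 1.0. Its other probe sets gave -0.08 and -0.32.

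EIF3J encodes a loosely bound eIF3 subunit that sits near the decoding site. It had 9.89 to 10.23 in the 9 treated arrays with a median of 10.12, against 10.28 and 10.26 in control. Every treated array lay below both control arrays, the only member of which this held over all treatments, where 2.91% of all genes did not overlap. The log2 difference was -0.20 ± 0.09 (SE), with an unadjusted limma p of 0.0417 and an adjusted p of 1.0.

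EIF1AX, for the factor eIF1A that opens the small subunit for scanning, averaged 11.03 ± 0.10 with the combination (SD, n = 3), against 11.30 ± 0.12 in control (SD, n = 2). The difference of -0.27 ± 0.11 (SE) had an adjusted limma p of 1.0. EIF3K, a peripheral eIF3 subunit, differed by -0.25 ± 0.14 (SE) in the same comparison, with an adjusted p of 1.0 in the fit of group means.

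The elongation factors lay on both sides of 0 with the combination, 4 of 9 above it and 5 below, with a median of -0.01. EEF1A1, which encodes the abundant form of eEF1A, had 14.28, 14.34 and 14.20 with the combination, against 14.06 and 14.01 in control. The combined arrays all lay above both controls, and the log2 difference was 0.24 ± 0.09 (SE) with an unadjusted limma p of 0.0265 and an adjusted p of 1.0. EEF2, the translocase, differed by 0.19 with a 95% interval of -0.04 to 0.43. After quantile normalization, the highest difference among the 9 elongation factors in this comparison was 0.08.

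Bright genes at large lay on the same side in the combined arrays. Among genes with a log2 value of 12 or more, 235 of 240 other genes were above the mean of the single oligos, with a median of 0.13, and all 10 members of that level were too, with a median of 0.17. EEF1A1 had 0.22 ± 0.07 (SE, unadjusted limma p 0.0104, adjusted p 1.0) and EIF1 had 0.25 ± 0.12 (SE, adjusted p 1.0). Over the 56 members the combination gave a median of -0.01 against the mean of the single oligos and 0 calls, where 0.0% of all genes were called. In replicates 1 and 2 of every group, this comparison also gave 0 calls, with 32 members higher and 24 lower. The members' median was 0.02 there, beside 0.01 over all genes. At an unadjusted p under 0.05 there were 10 members (17.9%), beside 6.42% of all genes.

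EIF1, which guards the choice of start codon, carried the clearest combined value in the arrays numbered 1 and 2. It had 13.76, 13.77 and 13.26 with the combination, against 13.36, 13.42 and 13.15 with miR-99a, 13.47, 13.45 and 13.23 with miR-100, and 13.31 and 13.44 in control. The first pair of combined arrays exceeded every other array, while replicate 3 of the combination lay below both controls. With all arrays the log2 difference of the combination from control was 0.22, with a 95% interval of -0.11 to 0.55. After quantile normalization, the highest difference among the genes of eIF1, eIF5 and eIF6 in this comparison was 0.08.

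Restricted to replicates 1 and 2 of every group, limma called EIF1 with the combination, at 0.39 ± 0.08 (SE, adjusted p = 0.0201), and no other member, in a comparison that called 1.47% of all genes. The same restriction over all treatments called EIF4EBP1, at 0.33 ± 0.08 (SE, adjusted p = 0.0485), where 1.0% of all genes were called. EIF4EBP1 encodes 4E-BP1, the inhibitor that holds eIF4E away from the cap complex. With miR-99a alone or miR-100 alone, 0 of 56 members and 0.0% of genes were called in this restriction. At an unadjusted p under 0.05 it had 13 members with miR-99a (9.62% of all genes), 22 with miR-100 (17.3%), 20 with the combination (15.4%) and 21 over all treatments (17.4%).

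EIF4EBP1 shows how far the arrays numbered 3 weighed on these comparisons. Its values were 10.36, 10.44 and 9.50 with miR-99a, 10.24, 10.24 and 9.72 with miR-100 and 10.26, 10.43 and 9.65 with the combination, against 9.82 and 10.18 in control. Replicates 1 and 2 of every treatment lay above both controls, and replicate 3 of every treatment lay below both. With all arrays the difference over all treatments was 0.09 with a 95% interval of -0.47 to 0.65.

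No member was shown to differ between the microRNAs of the same seed. At the matched dose of 66 µM, miR-100 against miR-99a gave 0 calls among 56 members and 0.0% of all genes called, with 0 members at an unadjusted p under 0.05. The members' log2 differences ran from -0.08 for EEF1AKMT3 to 0.13 for EEF1AKMT2, a pair of methyltransferases that modify eEF1A, with a median of -0.01. Their 95% intervals were -0.24 to 0.07 and -0.22 to 0.47, and the wider interval of EIF4E was -0.52 to 0.60. No member separated the arrays of one oligo from those of the other, where 4.66% of all genes did. In replicates 1 and 2 of every group, limma called 0 members, with a median of -0.07, beside -0.04 over all genes. Of the 56 members, 40 were lower and 16 higher with miR-100. At an unadjusted p under 0.05 there was 1 member, beside 5.86% of all genes.

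The replicate number gave far more calls than any oligo. Within the 9 treated arrays, and with treatment as a term, replicate 3 against replicates 1 and 2 gave 39 called members of 56, 28 higher and 11 lower, where limma called 29.3% of all genes, 17.1% higher and 12.2% lower. The members' median log2 difference was 0.18, beside 0.00 over all genes. All 39 called members kept 1 direction within each of the 3 treatments. The call rests on these same differences and so favours that result. Between replicate 3 and the other treated arrays, 30 members had no overlap, where 25.9% of all genes had none.

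**Figure D2:**
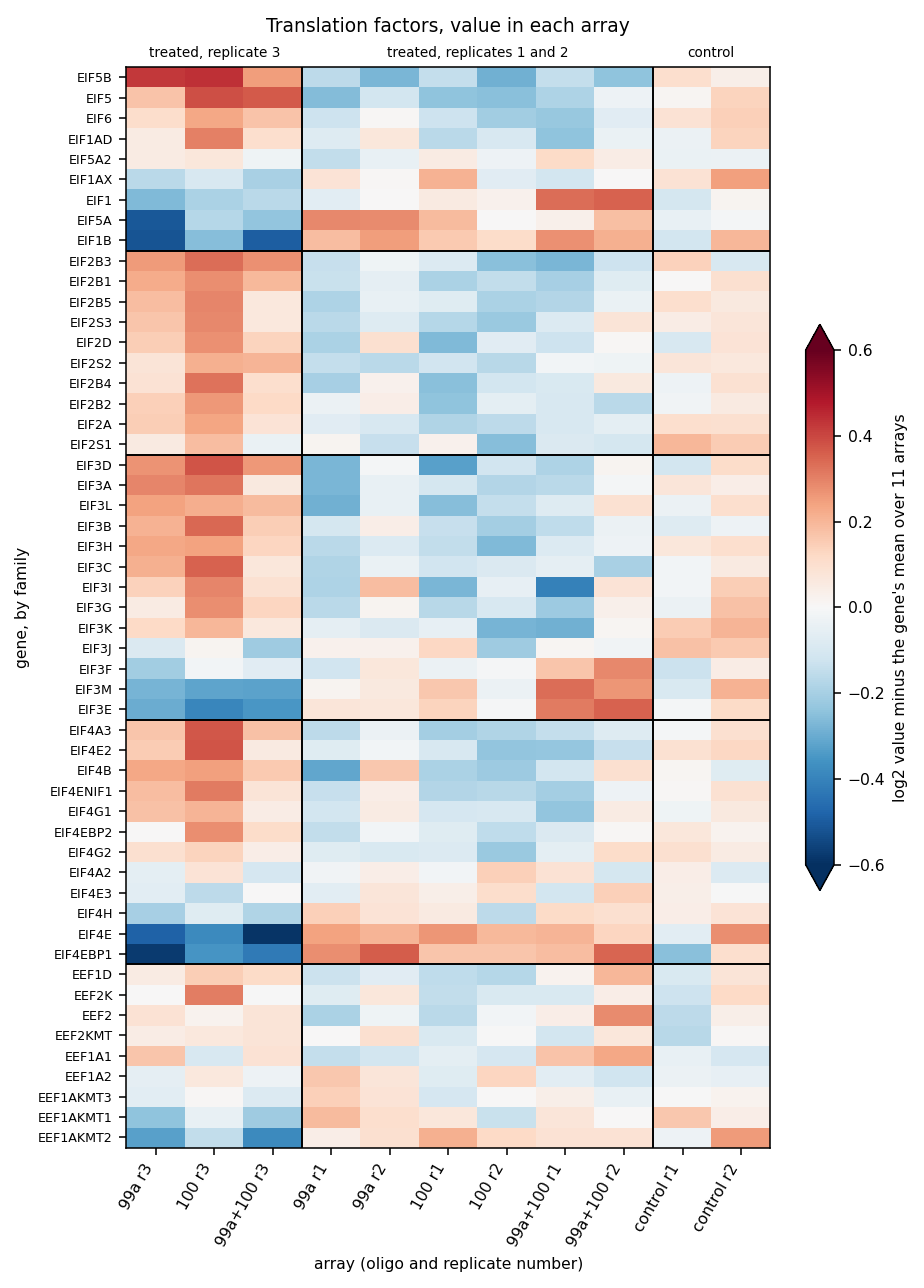
Log2 value minus the gene's mean over 11 arrays (colour) for 53 translation factor genes in rows, by family, and the arrays in columns, with treated replicate 3 at the left, treated replicates 1 and 2 in the middle and control at the right (r is the replicate number). Most eIF2, eIF2B and eIF3 genes are above their mean in the 3 arrays at the left, while EIF4E, EIF4EBP1, EIF1B, EIF3E and EIF3M are below it.

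Replicates 1 and 2 were close to each other. Replicate 2 against replicate 1 gave 1 called member, EIF3I at 0.36 (limma adjusted p = 0.00571), where 0.157% of all genes were called. EIF3I encodes a WD-repeat subunit of eIF3. The median deviation of the members from their own mean was 0.07, 0.20 and 0.07 in replicate 3 of miR-99a, miR-100 and the combination, against -0.10 to 0.01 in treated replicates 1 and 2, and -0.02 and 0.08 in control. No control array carries the number 3, so the number and the treatment are not fully crossed.

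RNA from the arrays numbered 3 had differences between transcript ends within or near the range of the others. The 3′ minus 5′ difference of the actin control probes was 2.52 to 2.85 there, against 2.46 to 3.17 in treated replicates 1 and 2. For the GAPDH control probes it was 0.56 to 0.72, against 0.53 to 0.63. The arrays numbered 3 of miR-99a and of the combination, at 0.715 and 0.635, exceeded all other arrays. The part of these values in the differences was not tested.

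Nearly all eIF2 and eIF2B genes rose. In replicate 3, 9 of 10 were called higher and 0 lower, with a median log2 difference of 0.27, and 8 had no overlap. Over all genes, 17.1% were called higher and 25.9% had no overlap. Of other genes with log2 values of 8 to 10, 42.2% were called higher. EIF2B3, for the gamma subunit of the exchange factor that reloads eIF2 with GTP, had 8.36, 8.44 and 8.38 in replicate 3, against 7.83 to 8.08 in the other treated arrays with a median of 7.97. The groups did not overlap, and of the control arrays 1 lay between them at 8.24 and 1 among the lower ones at 8.01.

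The difference for EIF2B3 was 0.44 ± 0.07 (SE, adjusted p = 7.7e-07). EIF2B1, the regulatory alpha subunit that senses phosphorylated eIF2, averaged 9.87 ± 0.04 (SD, n = 3) against 9.51 ± 0.06 (SD, n = 6), a difference of 0.37 ± 0.07 (SE). Both kept their call in every alternative run, but each has 1 probe set, so the alternatives on other probe sets repeated the same values.

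Of the eIF2 subunits themselves, EIF2S2 (beta) had 12.09, 12.22 and 12.22 in replicate 3, against 11.84 to 11.99 with a median of 11.88. The lowest replicate 3 array was above the highest of the others, and the difference was 0.27 ± 0.06 (SE, adjusted p = 0.00079). EIF2S3 (gamma), which binds GTP and the tRNA, differed by 0.28 ± 0.07 (SE) with overlap. EIF2S1 had 0.16 ± 0.07 (SE, adjusted p = 0.0899) and was the 1 gene of the family that was not called. This depended on the probe set and the normalization. Its other probe sets, at means of 9.43 and 8.33, gave 0.34 and 0.29, and quantile normalization called all 10 genes of the family higher. EIF2A and EIF2D, which can deliver initiator tRNA without eIF2, were called at 0.26 and 0.28.

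The remaining exchange factor subunits differed by 0.27 (EIF2B2), 0.27 (EIF2B4) and 0.30 (EIF2B5). EIF2B5 is the catalytic subunit. A dim further probe set of EIF2B5, at a mean of 5.75, gave -0.33, and the mean of both probe sets gave -0.02.

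eIF3 split within the complex. Of 13 genes, 9 were called higher and 2 lower, with a median of 0.28 and 10 without overlap. Over all genes, 17.1% were called higher, 12.2% were called lower and 25.9% had no overlap. EIF3D, for the subunit that can itself bind the cap of some messengers, had 11.11, 11.21 and 11.10 in replicate 3, against 10.51 to 10.85 with a median of 10.69. It had no overlap and the largest rise of the family, 0.45 ± 0.07 (SE, adjusted p = 1.5e-06).

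EIF3L, a peripheral subunit, averaged 12.91 ± 0.03 (SD, n = 3) against 12.58 ± 0.14 (SD, n = 6) and rose by 0.33. The core scaffold subunits rose too, EIF3A by 0.35 ± 0.07 (SE) and EIF3B by 0.33 ± 0.07 (SE), as did EIF3H by 0.33, EIF3C by 0.32, EIF3I by 0.28, EIF3G by 0.25 and EIF3K by 0.25. EIF3C was read from a probe set at 7.28, which is dim for this family, and its near-identical copy EIF3CL shares probe sets, so its source is uncertain.

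EIF3E and EIF3M fell. EIF3E had 12.78, 12.69 and 12.73 in replicate 3, against 13.07 to 13.43 with a median of 13.18. EIF3M had 12.48, 12.44 and 12.44 in replicate 3, against 12.73 to 13.10 with a median of 12.87. Neither gene's arrays overlapped. The log2 differences were -0.50 ± 0.07 for EIF3E (SE, adjusted p = 4.86e-08) and -0.44 ± 0.07 for EIF3M (SE, adjusted p = 9.44e-07).

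The direction held for the second EIF3E probe set, at -0.72, and for 3 of the 4 EIF3M probe sets of level 7 or more. EIF3J (-0.09) and EIF3F (-0.16, adjusted p = 0.0772) were not called. EIF3F depended on the probe set. Its main probe set, at a mean of 12.62, is of the _x_at and _s_at classes, which may match several transcripts. Outside these classes, a far dimmer one at 7.72 gave 0.25 (adjusted p = 0.00394) and another at 5.10 gave -0.08.

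**Figure D3:**
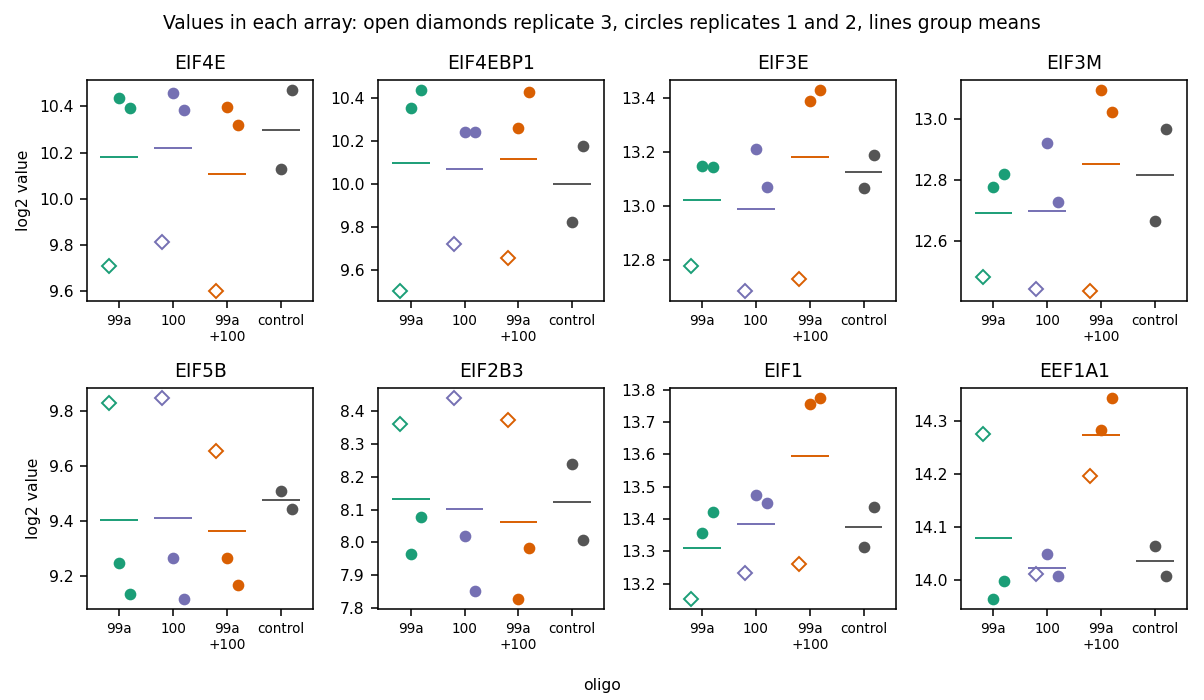
Log2 value of 8 genes in each array (vertical axes differ and do not start at 0), by oligo, with open diamonds for replicate 3, circles for replicates 1 and 2 and lines for group means. Diamonds lie below the circles of their oligo for EIF4E, EIF4EBP1, EIF3E, EIF3M and EIF1, above them for EIF5B and EIF2B3, and on no one side for EEF1A1.

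The cap-binding module held the strongest falls among the members. EIF4E, which encodes the cap-binding protein itself, had 9.71, 9.81 and 9.60 in replicate 3 of miR-99a, miR-100 and the combination, against 10.32 to 10.46 in the other treated arrays with a median of 10.40. The groups stood apart by far more than the spread within either, and the control arrays lay between them at 10.13 and just above both at 10.47. The difference was -0.69 ± 0.06 (SE, adjusted p = 6.1e-12), a level 0.619 times that of replicates 1 and 2.

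EIF4EBP1, its inhibitor, fell beside it by 0.70 ± 0.07 (SE, adjusted p = 1.78e-11) to 0.615 times the level in replicates 1 and 2. The other brighter EIF4E probe sets gave -0.72 and -0.52, at means of 10.01 and 9.71. EIF4EBP1 has 1 probe set, so no second reading exists for it here.

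The other called eIF4 genes rose, apart from EIF4H. EIF4A3, the helicase of the exon junction complex, had 10.53, 10.73 and 10.54 in replicate 3, against 10.16 to 10.33 with a median of 10.21, without overlap and at 0.37 ± 0.07 (SE, adjusted p = 1.71e-05). EIF4E2, a cap-binding relative that represses translation, rose by 0.33, EIF4B, the helicase cofactor, by 0.31, and EIF4ENIF1, which carries eIF4E into the nucleus, by 0.31. A second EIF4B probe set, at a mean of 10.05, gave only 0.08, and a dimmer one gave -0.16. The second EIF4E2 probe set, at 7.89, gave 0.29.

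EIF4G1, the scaffold that bridges eIF4E and eIF3, rose by 0.22, with 0.11 on its second probe set, and EIF4EBP2 rose by 0.21. EIF4EBP2, a second eIF4E inhibitor, was not steady over its probe sets, with -0.37 on one at 8.11 and -0.01 for the mean of all. EIF4H, another helicase cofactor, fell by 0.21, and EIF4G2, a cap-independent scaffold, had 0.16 (adjusted p = 0.0726). EIF4A2 at 5.18 and EIF4E3 at 6.04 rested on dim probe sets and were not called.

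A promoter is shown for EIF4E, the member that fell with the lowest adjusted p, because it is a known MYC target with E-boxes (CACGTG, a palindrome that reads the same on both strands) near its start. The 250 bases before the annotated start lie at chr4:98929134-98929383 (GRCh38.p14, minus strand, RefSeq), with both matches in capitals.
EIF4E: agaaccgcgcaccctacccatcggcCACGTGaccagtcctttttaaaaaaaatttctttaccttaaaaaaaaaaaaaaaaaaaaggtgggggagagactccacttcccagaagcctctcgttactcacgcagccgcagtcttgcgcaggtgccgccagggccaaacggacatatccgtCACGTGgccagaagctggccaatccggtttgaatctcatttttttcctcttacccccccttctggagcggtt
CACGTG occurred within 250 bases before to 50 bases after the start in 11 of 42 members (26.2%), beside 11.3% of protein-coding genes. It occurred in 5 of 23 called higher (21.7%), 3 of 8 called lower (37.5%) and 3 of 10 not called. The pyrimidine start occurred in 9 of the 23 called higher (39.1%), in 1 of the 8 called lower (12.5%) and in 5 of the 10 not called. These are matches of letters in annotated windows and say nothing of binding.

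Start codon and joining factors divided evenly. Of the 10 genes of eIF1, eIF5 and eIF6, 4 were called higher and 4 lower, and the median was -0.01. The shares over all genes were 17.1% higher and 12.2% lower. EIF5B, the GTPase that joins the subunits, had 9.83, 9.85 and 9.66 in replicate 3, against 9.12 to 9.27 with a median of 9.21. It had no overlap, and at 0.58 ± 0.07 (SE, adjusted p = 1.38e-09) it had the largest rise of all members, to 1.49 times the level in replicates 1 and 2.

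EIF5, the GTPase-activating partner of eIF2, rose by 0.49 ± 0.07 (SE, adjusted p = 9.21e-08), with 11.05, 11.26 and 11.24 in replicate 3, against 10.62 to 10.84. EIF6, which keeps the large subunit from joining early, rose by 0.29 and EIF1AD by 0.24. Only EIF1AD of these overlapped between the groups.

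The eIF1 pair and eIF5A fell. EIF1B, a close relative of EIF1, had 10.80, 11.07 and 10.83 in replicate 3, against 11.43 to 11.59 with a median of 11.52. It had no overlap and a difference of -0.62 ± 0.07 (SE, adjusted p = 3.62e-10). EIF5A, the hypusine-carrying factor that relieves stalled ribosomes, differed by -0.47 ± 0.07 (SE), with -0.42 and -0.41 on its other probe sets.

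EIF1 differed by -0.32 ± 0.07 (SE, adjusted p = 0.000122) and EIF1AX by -0.17 (adjusted p = 0.0495). The fall of EIF5A was uneven over treatments, at -0.80 with miR-99a, -0.35 with the combination and -0.27 with miR-100. EIF5A2, at a mean of 5.02, was not called. EIF1AY is counted among the members and its level is not reported.

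Few elongation factors were called with the values as deposited. Of 9 genes, 0 were called higher and 2 lower, with a median of 0.05, where 17.1% of all genes were called higher and 12.2% lower. Quantile normalization called 3 of the 9 higher and 2 lower. EEF1A1 had 14.28, 14.01 and 14.20 in replicate 3, against 13.97 to 14.34 with a median of 14.03, so the groups overlapped, and the difference was 0.05 with a 95% interval of -0.09 to 0.19. EEF2 had 0.07, with an interval of -0.07 to 0.21.

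EEF1D, for an exchange factor subunit of eEF1, had 0.15 (adjusted p = 0.0833) and EEF2K, the kinase that inhibits eEF2, had 0.15 (adjusted p = 0.12). A second EEF1D probe set, at a mean of 11.60, gave 0.39, and the second of EEF2K, at 8.46, gave -0.02. EEF1A2, the muscle and neuron form of eEF1A, had -0.02, EEF2KMT, the eEF2 methyltransferase, had 0.07 and EEF1AKMT3 had -0.06, and the noncoding EIF1B-AS1 and EIF3J-DT had 0.05 and 0.13, none of them called. The genes that fell were the eEF1A methyltransferases EEF1AKMT2, by 0.39 without overlap, and EEF1AKMT1, by 0.22. Neither call held in every alternative run. Dimmer EEF1AKMT2 probe sets, at means of 6.98 and 6.09, gave 0.09 and -0.06, and EEF1AKMT1 differed by only -0.01 within miR-100. EEF1A1 and its many processed copies share sequence, and its brightest probe set is of a class that may match several transcripts, so its value is uncertain in source. Other EEF1A1 probe sets gave -0.05 to 0.43, the highest on one at a mean of 8.81.

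**Figure D4:**
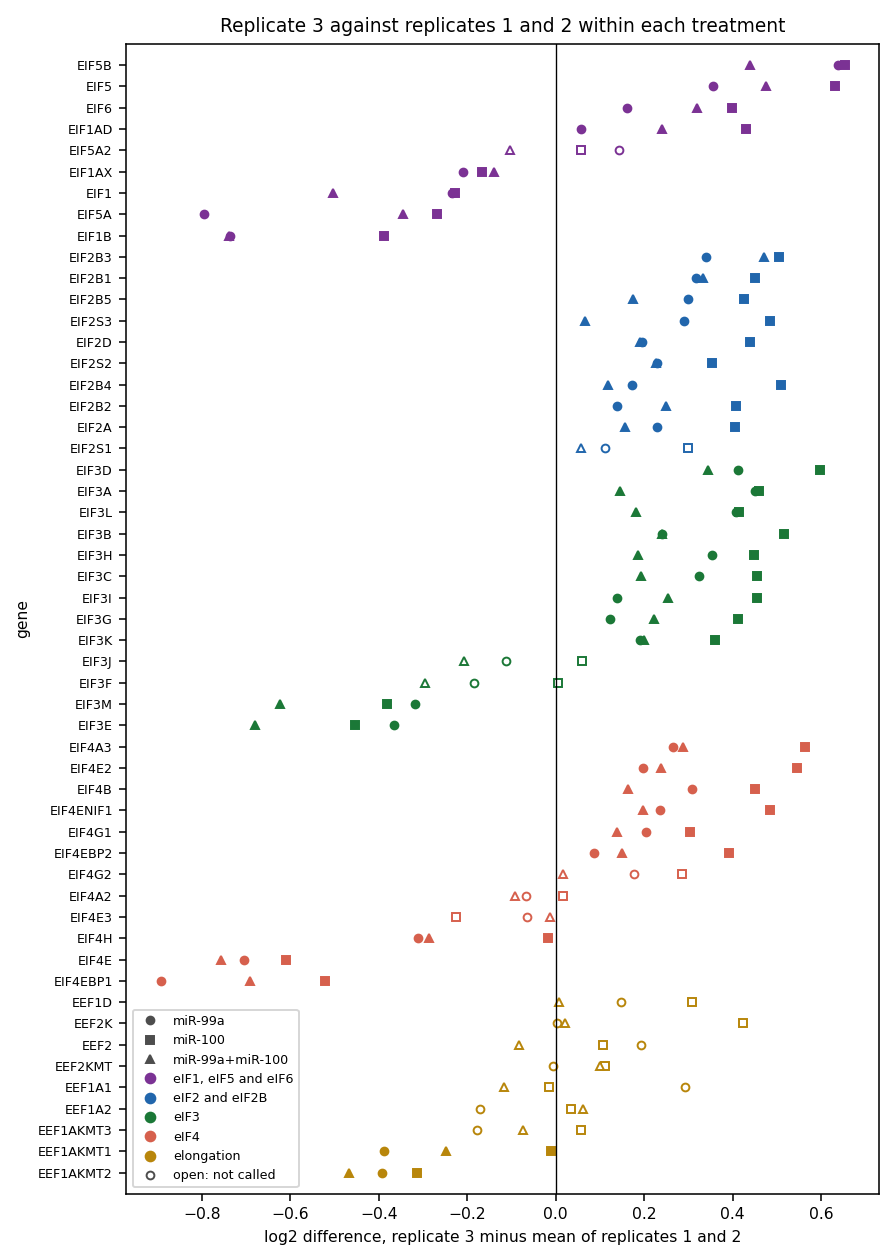
Log2 difference of replicate 3 from the mean of replicates 1 and 2 (horizontal axis) within miR-99a, miR-100 and the combination, for 53 genes in rows and coloured by family, with filled symbols for called genes. The 3 symbols of every filled gene lie on 1 side of 0, and the rises tend to be largest in miR-100.

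The level of a gene mattered for this comparison, since bright genes at large were lower in replicate 3. Between log2 values of 8 and 10, the 17 members had a median of 0.28 and 3998 other genes had 0.12. At 10 to 12 the 17 members had 0.25 and 1271 other genes had -0.10. At 12 and over the 10 members had 0.06 and 240 other genes had -0.23. Called higher were 82.4% and 58.8% of members in the lower pair of these bins, beside 42.2% and 27.1% of other genes, and 2 of 10 members in the highest, beside 7.08%.

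**Figure D5:**
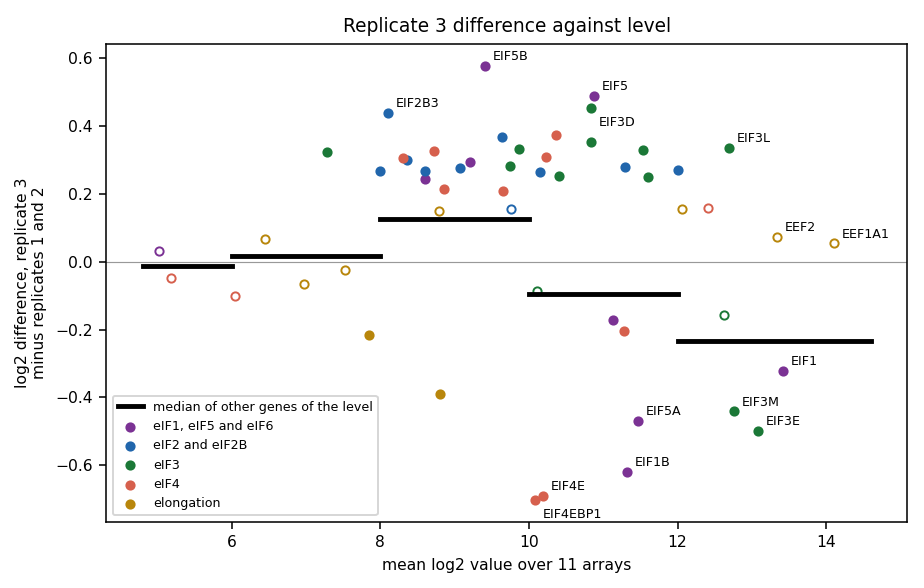
Log2 difference of replicate 3 from replicates 1 and 2 in the treated arrays (vertical axis) against mean log2 value over 11 arrays (horizontal axis) for 53 genes coloured by family, filled where called. Black bars are medians of other genes by level, which are 0.12 at 8 to 10, -0.10 at 10 to 12 and -0.23 at 12 and over.

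When each array's values were taken relative to other genes of the same level, an alternative chosen after seeing the data, 36 members were called, 28 higher and 8 lower, where 30.2% of all genes were, 15.4% higher and 14.9% lower. The bright elongation factors then passed, EEF1D at 0.39 (adjusted p = 8.51e-06), EEF2 at 0.31 (adjusted p = 0.000483) and EEF1A1 at 0.29 (adjusted p = 0.000254), as did EIF4G2 at 0.40. EIF1 no longer passed, at -0.09 (adjusted p = 0.258), and nor did EIF1AD, EIF1AX, EIF3I, EIF4EBP2, EIF4G1 and EIF4H. EIF4E at -0.58 and EIF4EBP1 at -0.60 kept their calls, as did 9 of the 10 eIF2 and eIF2B genes.

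The control arrays lay between replicate 3 and the other treated arrays for 34 of the 39 called members, by group means. For EIF2S1, which was not called, the control mean of 9.94 lay above both, at 9.83 in replicate 3 and 9.67 in the other treated arrays. Of the 39 calls, 25 held without each treated array in turn and 20 held in every alternative run, among them EIF4E, EIF4EBP1, EIF5B, EIF5, EIF1B, EIF3D, EIF3E and EIF2B3. For members with 1 probe set, such as EIF4EBP1, EIF3D and EIF2B3, the alternatives on other probe sets repeated the same values or left the gene out. Of 20 called members with several probe sets of level 7 or more, 18 had all of them in 1 direction, and over the 20 members 56 of 59 probe sets had the direction of the call. Both counts include the probe set that gave each call, which has that direction by construction. They leave out dimmer probe sets, some of which went the other way.

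Other genes of the translation machinery are given for the same comparison beside genes of their level. Of 59 cytoplasmic ribosomal protein genes, 39 were called lower and 3 higher, with a median of -0.28. Their median level was 13.73. At 12 and over, genes outside the members, which include ribosomal protein genes, had a median of -0.23, and 57.5% were called lower. Of 9 mitochondrial translation factors, 6 were called higher and 0 lower, with a median of 0.29, led by MTIF2 at 0.58, the mitochondrial counterpart of the tRNA-delivering initiation factor. The eIF2 kinases gave 3 of 4 higher and 0 lower, with EIF2AK3 (PERK) at 0.33 and EIF2AK4 (GCN2) at 0.28. The median levels of these lists were 8.65 for the mitochondrial factors and 9.55 for the kinases. Of genes outside the members at 8 to 10, 42.2% were called higher and 22.1% lower, with a median of 0.12.

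Among 28 other cytoplasmic translation factors, 9 were called higher and 12 lower, where 17.1% of all genes were called higher and 12.2% lower. Their median level was 8.69, and of genes outside the members at 8 to 10, 42.2% were called higher and 22.1% lower. MCTS1, which supports reinitiation and recycling of the small subunit, fell by 0.90, and PAIP1, a partner of the poly(A)-binding protein, fell by 0.67. Of 9 genes of the mTOR axis, MTOR (0.38), RICTOR (0.43) and TSC1 (0.32) were among the 4 called higher, and RHEB, the activator of mTOR, was the 1 called lower, at -0.58. The 9 genes had a median level of 7.01, and of genes outside the members at 6 to 8, 19.7% were called higher and 10.9% lower. Of 8 members listed as known terminal oligopyrimidine messengers, 3 were called higher and 1 lower, with a median of 0.11. The list holds EEF1A1, EEF1D, EEF2, EIF3A, EIF3E, EIF3F, EIF3H and EIF4B, but not EIF3D or EIF3M, whose starts are shown above. Their median level was 12.34. Of genes outside the members at 12 and over, 7.08% were called higher and 57.5% lower, with a median of -0.23. In the fit of group means, 0 genes of these lists were called in each comparison of an oligo with control.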

How the data were processed

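The authors deposited 1 table of log2 values for 54675 Affymetrix probe sets and 11 arrays, with a range of 4.398 to 14.839 and array medians of 5.95 to 5.984. The summarisation and normalization are unstated in the labels and the table, and the log2 scale of the deposited values was read from their range. Of the probe sets, 41091 carried 1 gene symbol. The probe set of highest mean stood for each of 19775 genes (names updated through RefSeq, GRCh38.p14). limma 3.58.1 in R 4.3.3 fitted group means over 11 arrays, and treatment plus replicate 3 over the 9 treated arrays. P-values were Benjamini-Hochberg adjusted over all genes and called under 0.05. The fits were tested on simulated data. Deviations of same-numbered arrays from their group means correlated at 0.168 to 0.816 in all 9 pairs of treatments, and at -0.152 to 0.438 in the 6 pairs with control, of which 3 exceeded 0.1. Members and gene lists were chosen with earlier results of these data known, members are named where they were called or lead their family, and other genes as up to 4 of each list that passed. Alternatives were quantile normalization, a filter on dim genes, other probe sets, an intensity trend, terms for replicate number, and leaving out arrays. The number of arrays and the spread of the arrays numbered 3 both limit precision.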

Additional observations from a re-analysis of the deposited data

How the results depend on the processing

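The counts of members called against control were 0 without each array in turn for every oligo comparison. With the replicate block, which fits the replicate number as a term, 6 members were called with the combination against control (EIF1 and EIF4EBP1 higher, EIF2S1, EIF3K, EIF4E2 and EIF5B lower, among 4.36% of all genes) and 5 over all treatments (EIF4EBP1 higher, EIF2S1, EIF3K, EIF5 and EIF5B lower, among 2.56%). The numbers were not shown to pair control with treated arrays, so these values stand here only. With replicate 3 as a term, 3 members were called with the combination (EIF1, EIF3K and EIF4E2). Replicates 1 and 2 of every group gave 1 call with the combination and 1 over all treatments. The block gave 0 calls in the other oligo comparisons. For replicate 3, the count was 28 to 40 without each treated array in turn, and the median 0.113 to 0.235, while quantile normalization gave 41 calls. EIF2B5 and EIF4EBP2 changed sign on the mean of all probe sets, at -0.017 and -0.008. EIF3F did so at 0.247 on its brightest probe set outside the _x_at and _s_at classes. Over all treatments, the 95% interval of EIF4EBP1 was 0.17 to 0.48 with the block, against -0.47 to 0.65 without it, on the same 11 arrays.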
